A study of Mus musculus with 6 samples.

Results

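The BCL2 family of cell death regulators was examined in hearts of mice lacking 1 allele of the receptor kinase GRK2 and in wild-type hearts. Of 10 family genes sought by symbol, 8 were represented, by 27 of the 45037 probe sets tested; a probe set is a group of short probes on an Affymetrix array that is summarised to 1 value, and each counted here only if the platform annotation gave it exactly 1 gene symbol. The genes were the pro-survival Bcl2 (5 probe sets), Bcl2l1 (4) and Mcl1 (6), and the pro-death Bcl2l11 (5), Bid (3), Bbc3 (1), Bak1 (2) and Bnip3 (1). Bax had no probe set of its own in that annotation, and the 3 probe sets listed for Bnip3l were listed jointly with its pseudogene, so neither gene was analysed here.

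The GRK2+/- mice carried the targeted allele Adrbk1tm1Mca (strain B6.129-Adrbk1tm1Mca/J), bred for more than 20 generations onto C57BL/6J, and the controls were wild-type littermates on C57BL/6J. All were 9 months old, the labels name no treatment beyond anaesthesia and the arrest of the heart, and they give no sex. The allele is in every cell of the animal, so the comparison is of whole-heart tissue from heterozygous mice and not of a loss limited to cardiomyocytes. Each group had 3 hearts with 1 array each, a number that limits the precision. By the labels' protocol the tissue was an excised upper part of the heart, but 3 of the 4 atrial markers checked were not at heart muscle levels, as given with the markers. No probe set of the annotation was named Grk2 or Adrbk1, so the targeted gene gave no check of the labels.

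Proteins of the BCL2 family decide whether the outer membrane of mitochondria stays closed or is opened to release cytochrome c, which starts the caspase cascade. BCL2, BCL-XL (from Bcl2l1) and MCL1 hold the membrane-permeabilising effectors BAX and BAK (from Bak1) in check. The BH3-only proteins BIM (from Bcl2l11), BID and PUMA (from Bbc3) relieve that restraint or activate the effectors directly. BNIP3 and its relative NIX (from Bnip3l) sit on the same membrane and are best known as receptors that deliver mitochondria to autophagy. In heart muscle, whose cells are rarely replaced, BCL-XL and MCL1 are known to be needed for survival, and BNIP3 for the response to low oxygen.

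The 2 genes on which the results turn are Bcl2l11 and Bcl2l1, and the bases before a start of each are shown to set a pro-death and a pro-survival promoter side by side. The windows come from RefSeq on GRCm38.p6, which held 14 windows for 9 of the 10 genes, and each is printed 5′ to 3′ up to the base before the start. The Bcl2l11 window is chr2:128125788-128126037 on the + strand and the Bcl2l1 window chr2:152831729-152831978 on the - strand. Capitals mark the FOXO motif GTAAACA, the hypoxia-factor core ACGTG and the GC box GGGCGG, all searched on both strands.
Bcl2l11: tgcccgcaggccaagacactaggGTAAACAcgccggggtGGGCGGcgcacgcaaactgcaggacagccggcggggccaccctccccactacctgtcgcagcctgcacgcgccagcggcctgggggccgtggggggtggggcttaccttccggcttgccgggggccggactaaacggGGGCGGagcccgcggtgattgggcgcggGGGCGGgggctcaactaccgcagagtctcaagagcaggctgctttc
Bcl2l1: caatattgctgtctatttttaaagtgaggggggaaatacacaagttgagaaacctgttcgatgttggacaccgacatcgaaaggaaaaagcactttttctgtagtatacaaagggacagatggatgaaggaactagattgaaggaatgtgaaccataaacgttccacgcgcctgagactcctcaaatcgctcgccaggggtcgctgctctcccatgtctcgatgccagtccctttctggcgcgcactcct

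The Bcl2l11 window held 1 FOXO motif, 227 bases before the start, and 3 GC boxes, with 72% G or C. The window of the other listed Bcl2l11 start held 0 FOXO motifs and 2 GC boxes, with 73.2% G or C. The Bcl2l1 window held none of these letters, with 47.6% G or C, and neither did the windows of its other 2 listed starts. Of all 32851 RefSeq windows of 250 bases, 3.17% held the FOXO motif, 16.6% the hypoxia-factor core and 32.7% the GC box; among the 14 family windows the counts were 2, 3 and 10. The other FOXO match was at a start of Bbc3 (chr7:16310084-16310110, + strand). The hypoxia-factor core was present in the windows of Bax, Bbc3 and Bnip3, in each as an overlapping pair on both strands, and is shown for Bnip3 (chr7:138909585-138909639, - strand), whose induction by hypoxia is textbook knowledge. Capitals mark the named motif alone in these shorter stretches. Such matches describe the letters and not a bound site.
Bbc3: ctggcgggttTGTTTACaaacaatggg
Bnip3: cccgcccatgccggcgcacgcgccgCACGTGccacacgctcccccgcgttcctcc

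In GRK2+/- hearts the transcript of the pro-death gene Bcl2l11 was measured at higher levels by 3 of its 5 probe sets, by 0.40 to 0.57 on the log2 scale. That of the pro-survival gene Bcl2l1 was measured at lower levels by 3 of its 4 probe sets, by 0.30 to 0.48. For Bcl2, Mcl1, Bid, Bbc3, Bak1 and Bnip3 no probe set reached an unadjusted p of 0.05. None of the 27 probe sets passed the threshold of an adjusted p of 0.05 (limma with Benjamini-Hochberg adjustment over all 45037 probe sets), the smallest adjusted p being 0.178. The same fit called 0% of all probe sets at that threshold. At an unadjusted p under 0.05 it called 6 of the 27 (22.2%), against 12.8% of all probe sets. The 6 belonged to 2 genes, and probe sets of 1 gene are not independent measurements.

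**Figure D1:**
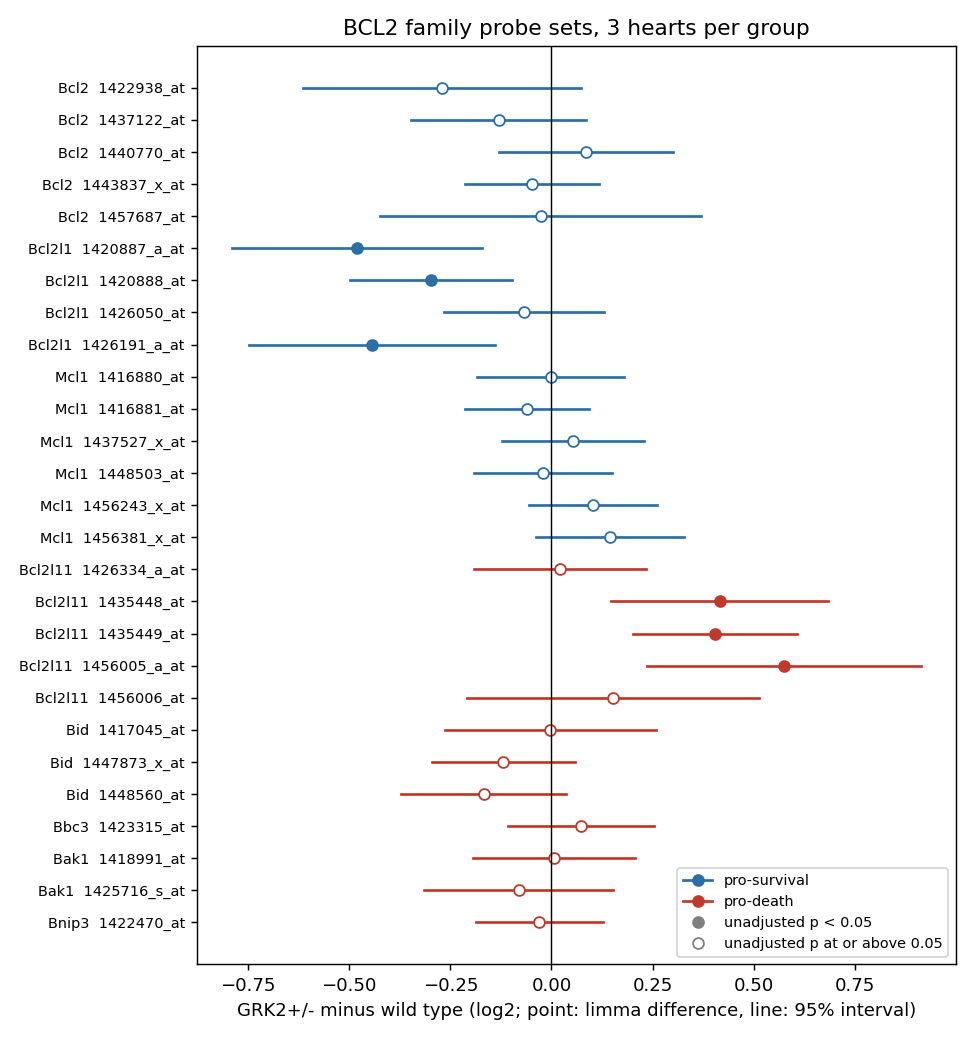
Difference between GRK2+/- and wild-type hearts for each of the 27 probe sets, on the log2 scale (points, limma; lines, 95% intervals; n = 3 hearts per group), with pro-survival genes in blue and pro-death genes in red and filled points for an unadjusted p under 0.05. The filled points are 3 probe sets of Bcl2l11, at 0.40 to 0.57, and 3 of Bcl2l1, at -0.30 to -0.48; the intervals of the other 21 include 0.

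Bcl2l11 encodes BIM, a BH3-only protein that binds all pro-survival members and can activate BAX and BAK. Its brightest probe set, 1456005_a_at, read 10.11, 9.50 and 10.14 in GRK2+/- hearts 1 to 3 and 9.39, 9.42 and 9.22 in wild-type hearts 1 to 3, in log2 units. GRK2+/- hearts 1 and 3 lay well above all wild-type hearts, and heart 2 lay 0.079 above the highest of them. The difference was 0.57 ± 0.15 (SE, n = 3 per group), or 1.49-fold (95% interval 0.24 to 0.91 on the log2 scale; unadjusted p = 0.0036, adjusted p = 0.215, limma).

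The probe set 1435448_at read 9.30, 8.83 and 9.31 in GRK2+/- hearts and 8.71, 8.70 and 8.78 in wild-type hearts. Its groups did not overlap either, with heart 2 again the lowest GRK2+/- value, and the difference was 0.42 ± 0.12 (SE, n = 3 per group; adjusted p = 0.234, limma). The dimmer probe set 1435449_at read 7.33, 7.12 and 7.31 against 6.89, 6.70 and 6.96. It had the smallest p of the family, with a difference of 0.40 ± 0.09 (SE, n = 3 per group), or 1.32-fold (unadjusted p = 0.00128, adjusted p = 0.178, limma), and ranked 324 of 45037 by p.

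The remaining 2 probe sets of Bcl2l11 also had differences above 0 but did not separate the groups. Probe set 1456006_at read 7.82, 7.13 and 7.78 in GRK2+/- hearts, so that heart 2 was below all wild-type values of 7.55, 7.40 and 7.32, and the difference was 0.15 ± 0.16 (SE, n = 3 per group). It was 0.38 without GRK2+/- heart 2 (unadjusted p = 0.00224, limma), and 0.028 and 0.051 without heart 1 or heart 3. Probe set 1426334_a_at, which was below the median level of all probe sets, differed by 0.022 ± 0.096 (SE, n = 3 per group; 95% interval -0.19 to 0.23). Its GRK2+/- mean was 5.85 and its wild-type mean 5.83. Bcl2l11 is spliced into several forms, and which forms each probe set detects is not given in the sources used here.

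Across its probe sets Bcl2l11 therefore split the GRK2+/- group. Averaged over all 5, hearts 1 and 3 were 0.43 and 0.46 above the wild-type mean, and heart 2 was 0.046 above it, inside the wild-type span of -0.052 to 0.048. Without GRK2+/- heart 2, probe set 1456005_a_at differed by 0.78 with an adjusted p of 0.0456, the 1 call of a family probe set in any alternative. Over the 13 alternatives run for it, its adjusted p ranged from 0.0456 to 0.545 and its difference from 0.47 to 0.78. Without GRK2+/- heart 1 or heart 3 the difference of 1456005_a_at was 0.48 and 0.47.

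**Figure D2:**
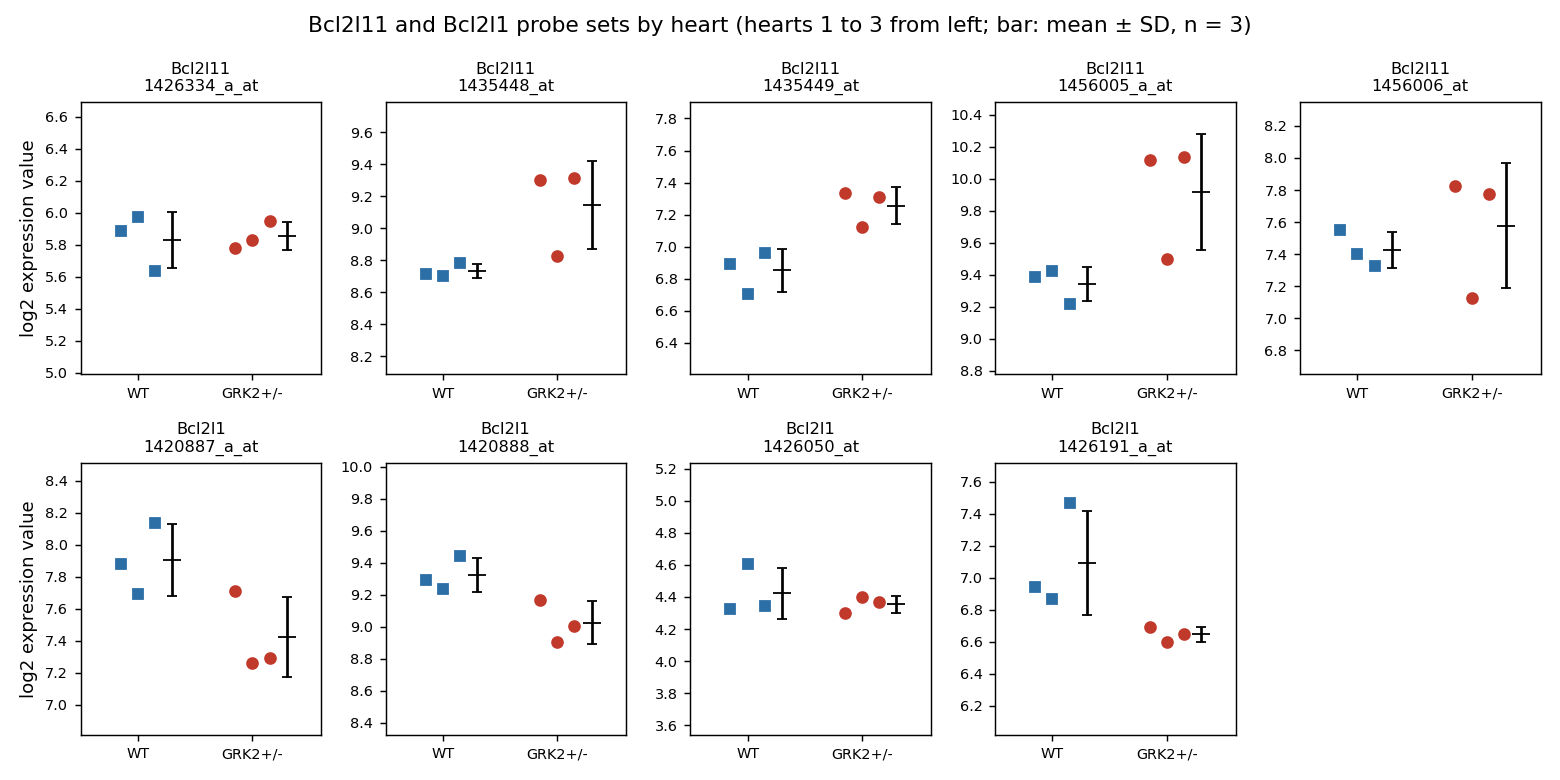
Log2 expression value of every heart for the 5 probe sets of Bcl2l11 (upper row) and the 4 of Bcl2l1 (lower row), with wild-type hearts as blue squares, GRK2+/- hearts as red circles, and bars for the mean ± SD (n = 3). All panels span the same range of log2 units; the GRK2+/- group lies wholly above wild type in 3 Bcl2l11 panels and wholly below it in 2 Bcl2l1 panels, and GRK2+/- heart 2 is the lowest red point in 4 of the Bcl2l11 panels.

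Bcl2l1 encodes BCL-XL, the pro-survival protein of the outer mitochondrial membrane, and by alternative splicing also a short pro-death form. Its brightest probe set, 1420888_at, read 9.17, 8.91 and 9.00 in GRK2+/- hearts 1 to 3 and 9.30, 9.23 and 9.44 in wild-type hearts 1 to 3. Every GRK2+/- value was below every wild-type value, with a gap of 0.064 between the groups. The difference was -0.30 ± 0.09 (SE, n = 3 per group), or 1.23-fold (95% interval -0.50 to -0.098 on the log2 scale; unadjusted p = 0.00771, adjusted p = 0.247, limma).

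Probe set 1426191_a_at read 6.69, 6.60 and 6.65 in GRK2+/- hearts and 6.94, 6.86 and 7.46 in wild-type hearts. The GRK2+/- hearts were close together and the groups did not overlap, but wild-type heart 3 stood 0.52 above the next value. The difference of -0.44 ± 0.14 (SE, n = 3 per group; adjusted p = 0.255, limma) was -0.26 without wild-type heart 3. Probe set 1420887_a_at read 7.71, 7.26 and 7.29 against 7.88, 7.69 and 8.14. Here GRK2+/- heart 1 was just above wild-type heart 2, and the difference was -0.48 ± 0.14 (SE, n = 3 per group; adjusted p = 0.234, limma).

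The fourth probe set of Bcl2l1, 1426050_at, lay near the bottom of the scale at 4.36 in GRK2+/- and 4.42 in wild-type hearts and differed by -0.068 ± 0.089 (SE, n = 3 per group). Averaged over all 4, the GRK2+/- hearts were at -0.22, -0.39 and -0.36 relative to the wild-type mean, against -0.075, -0.086 and 0.16 in wild-type hearts. All 3 GRK2+/- values were outside the wild-type range. In an exact two-sided permutation test over the 6 hearts, the 5 probe sets without overlap reached p = 0.1, the smallest p that 3 hearts against 3 allow, and 1420887_a_at reached p = 0.2. For the 5, this p follows from the lack of overlap and is no further test. Of all tested probe sets 17.9% had groups without overlap (6.76% higher and 11.2% lower in GRK2+/- hearts), against 5 of the 27 (18.5%).

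Bcl2, the founding pro-survival member, had 4 of 5 differences below 0 and none at an unadjusted p under 0.05. The largest was that of 1422938_at, which read 7.05, 7.21 and 7.18 in GRK2+/- hearts and 7.07, 7.37 and 7.82 in wild-type hearts. The groups overlapped, and wild-type hearts had a wide spread; the difference was -0.27 ± 0.15 (SE, n = 3 per group; 95% interval -0.62 to 0.073; adjusted p = 0.487, limma). It rested on single wild-type hearts: without wild-type heart 3 it was -0.072, and without wild-type heart 1 it was -0.44 (unadjusted p = 0.00819, limma). The difference of 1437122_at was -0.13, and was -0.24 without wild-type heart 1 (unadjusted p = 0.0171, limma) and -0.042 without wild-type heart 2. The probe sets other than 1422938_at differed by -0.13 to 0.085, and 2 of the 4, 1440770_at and 1443837_x_at, were dim, at percentiles 19.9 and 7.23 of all probe sets by level. When arrays were centred on their medians, 3 of the 5 differences were below 0.

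Mcl1, whose short-lived protein is a pro-survival member that heart muscle depends on, was measured by 6 probe sets at percentiles 91.4 to 98.2 of all probe sets by level. Its differences ran from -0.060 to 0.14, 3 above and 3 below 0 (5 above when arrays were centred on their medians), and all groups overlapped. The brightest probe set, 1437527_x_at, read 11.95, 12.00 and 12.03 in GRK2+/- hearts and 11.93, 12.07 and 11.83 in wild-type hearts. Its difference was 0.054 ± 0.079 (SE, n = 3 per group). The 95% intervals of the 6 probe sets together spanned -0.21 to 0.33, so each interval excludes a decrease as large as that fitted for 1420888_at of Bcl2l1. A suffix of x marks, by the manufacturer's convention, probes that may also bind other transcripts, and 3 of the Mcl1 probe sets carry it. Before centring, those 3 had the differences above 0 (0.054, 0.10 and 0.14). The 3 without the suffix had those below 0 (-0.0021, -0.060 and -0.021).

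Of the other BH3-only genes, Bid links death receptors to mitochondria after cleavage by caspase-8, and Bbc3 encodes PUMA, a target of p53. The 3 probe sets of Bid were at percentiles 7.61 to 34.2 by level, so signal over background was limited. Bid 1448560_at read 5.45, 5.36 and 5.28 in GRK2+/- hearts and 5.65, 5.36 and 5.59 in wild-type hearts, a difference of -0.17 ± 0.09 (SE, n = 3 per group; adjusted p = 0.467, limma). The groups overlapped at wild-type heart 2, without which the difference was -0.26 (unadjusted p = 0.0144, limma). Bbc3 read 7.36, 7.32 and 7.52 against 7.24, 7.33 and 7.41, with overlap, and differed by 0.072 ± 0.081 (SE, n = 3 per group; 95% interval -0.11 to 0.25).

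Bak1 encodes BAK, an effector that forms pores in the outer membrane. Its brighter probe set, 1418991_at, read 7.58, 7.46 and 7.63 in GRK2+/- hearts and 7.64, 7.63 and 7.38 in wild-type hearts. The GRK2+/- values lay within the wild-type range, and the difference was 0.0068 ± 0.090 (SE, n = 3 per group). Its dimmer probe set, 1425716_s_at, differed by -0.081 ± 0.105 (SE, n = 3 per group).

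Bnip3, a hypoxia-induced receptor for mitochondrial autophagy, was bright, at percentile 99.0 by level. It read 12.76, 12.76 and 12.78 in GRK2+/- hearts, an SD of 0.012, and 12.72, 12.79 and 12.88 in wild-type hearts, an SD of 0.078. The GRK2+/- values lay within the wild-type range, and the difference was -0.029 ± 0.070 (SE, n = 3 per group; 95% interval -0.19 to 0.13).

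Set against each other by role, the 15 pro-survival probe sets had a median difference of -0.049, with 11 below 0 and 4 above. The 12 pro-death probe sets had a median of 0.014, with 7 above 0 and 5 below. Neither median was larger in size than the SD of such a median between single hearts within groups (0.049 and 0.067). That SD is of single hearts and is not the error of a difference between groups. Neither median kept its sign when hearts were left out. Leaving out GRK2+/- heart 3 gave -0.028 for the pro-death side, and leaving out wild-type heart 3 gave -0.0065. The pro-survival side came to 0.024 once wild-type heart 2 was dropped. The median over all 45037 probe sets was -0.021, with 25843 below 0. Centring each array on its median moved that median to 0.0079, the share of higher ones among all probe sets at an unadjusted p under 0.05 from 42.4% to 60.8%, the pro-survival counts to 8 below and 7 above (median -0.020) and the pro-death counts to 4 below and 8 above (median 0.043), while all 5 differences of Bcl2l11 remained above and all 4 of Bcl2l1 below 0. At an unadjusted p under 0.05, 3 of 15 pro-survival probe sets were lower and 0 higher, where 7.4% of all probe sets were lower. Of the 12 pro-death probe sets 3 were higher and 0 lower, where 5.44% of all were higher. Without Bcl2l11 and Bcl2l1, the 18 other probe sets had a median of -0.024 and 0 at that level, so the opposite counts of the roles came from those 2 genes.

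The hearts with the most Bcl2l11 were not those with the least Bcl2l1. Over the 3 probe sets of each gene at an unadjusted p under 0.05, GRK2+/- heart 1 was at 0.61 for Bcl2l11 and -0.25 for Bcl2l1 relative to the wild-type mean. GRK2+/- heart 2 was at 0.18 and -0.52, and heart 3 at 0.61 and -0.46. Heart 2 thus had the smallest Bcl2l11 and the largest Bcl2l1 deviation of the group. These averages are over probe sets chosen for their p and are a description only.

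**Figure D3:**
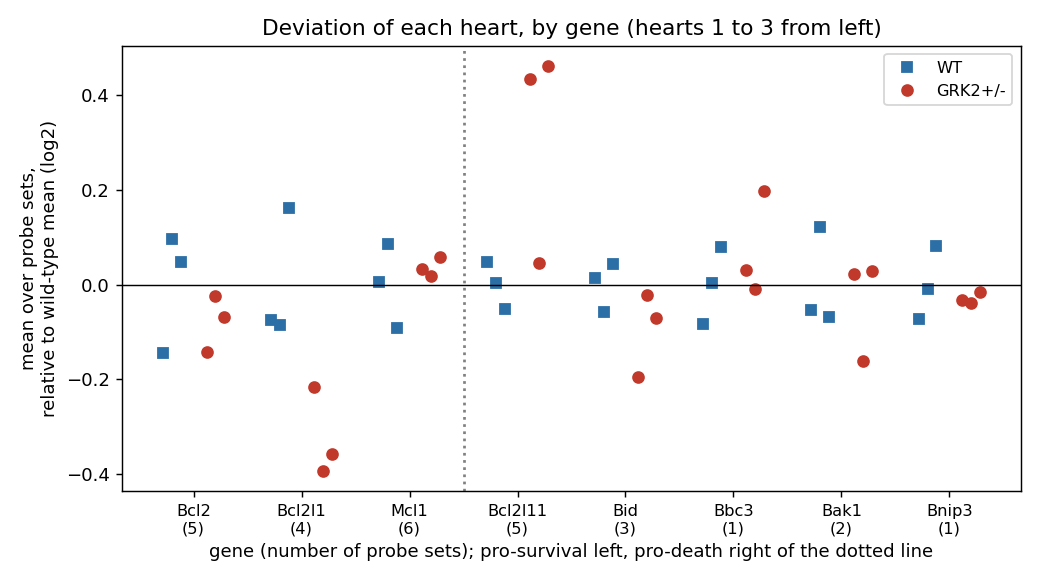
Mean over each gene's probe sets in every heart, relative to the wild-type mean, on the log2 scale, with wild-type hearts as blue squares, GRK2+/- hearts as red circles and the number of probe sets in parentheses. GRK2+/- hearts 1 and 3 stand at 0.43 and 0.46 for Bcl2l11, but heart 2, at 0.046, lies inside the wild-type span. All 3 GRK2+/- hearts stand between -0.22 and -0.39 for Bcl2l1, the only gene shown whose groups do not overlap. The groups also overlap for Bcl2, Mcl1, Bid, Bbc3, Bak1 and Bnip3.

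Other genes of the pathway were read in a table with the brightest probe set of each of 18193 genes, in which the same fit called 0% of genes at an adjusted p under 0.05 and 14% at an unadjusted p under 0.05 (6.3% higher, 7.7% lower). The median difference over all genes was -0.019. Of all genes in it 19.1% had groups without overlap (7.44% higher and 11.6% lower in GRK2+/- hearts). Of 19 other family genes, 15 were measured, and 1 was higher, 1 lower and 13 neither at that unadjusted level, with a median of -0.086. Bcl2l13, an outer-membrane protein that also acts as a mitophagy receptor, read 9.10, 9.23 and 9.23 in GRK2+/- hearts and 9.01, 8.90 and 8.95 in wild-type hearts. The groups did not overlap, and the difference was 0.23 ± 0.07 (SE, n = 3 per group; adjusted p = 0.231, limma), but its second probe set had the opposite sign. Bcl2l12 was at -0.16 ± 0.07 (SE, n = 3 per group; adjusted p = 0.345, limma), and its unadjusted p was under 0.05 in 6 of 13 alternatives only.

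Downstream of the mitochondrion, 17 of 19 listed genes of the apoptosome, caspases and their inhibitors were measured, with 1 higher, 1 lower and a median of 0.0099. Xiap, an inhibitor of caspases, differed by 0.22 ± 0.09 (SE, n = 3 per group), with 5 of 7 probe sets in that direction. The DNA-fragmenting nuclease gene Dffb differed by -0.18 ± 0.08, with 1 of 2 probe sets in that direction. Of 9 measured death receptors and adaptors, Tnfrsf1b, a receptor for tumour necrosis factor, differed by 0.20 ± 0.08 and the death receptor Fas by -0.24 ± 0.10 (SE, n = 3 per group). None of these 4 kept an unadjusted p under 0.05 throughout: Xiap, Tnfrsf1b and Fas did so in 8 of 13 alternatives each, and Dffb in 3 of 12. In the limma fit over all probe sets Dffb had an unadjusted p of 0.0504. The 16 measured mitophagy genes and the 9 mitochondrial membrane partners had 0 genes at an unadjusted p under 0.05. Their medians were -0.013 and -0.048, and the smallest p belonged to Pink1 (0.14 ± 0.07), the kinase that marks damaged mitochondria, and Map1lc3a (0.14 ± 0.07), a protein of autophagosome membranes, and to the channel Vdac2 (-0.11 ± 0.07) and the outer-membrane protein Tspo (-0.13 ± 0.08). The medians of the mitophagy genes and of the p53 targets below were above 0 after centring, at 0.016 and 0.014.

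Transcription factors known to act on family genes gave 3 higher and 1 lower of 12 measured, with a median of 0.093. Foxo3, an activator of Bcl2l11 and Bbc3 in other settings, read 10.21, 10.13 and 10.02 in GRK2+/- hearts and 10.42, 10.41 and 10.51 in wild-type hearts. Every GRK2+/- value was lower, all 3 of its probe sets pointed that way, and the difference was -0.32 ± 0.07 (SE, n = 3 per group; adjusted p = 0.15, limma). Its relative Foxo1 read 8.77, 9.18 and 8.98 against 8.73, 8.64 and 8.64, also without overlap but in the opposite direction (0.31 ± 0.10, SE, n = 3 per group), with 2 of 4 probe sets of that sign. GRK2+/- heart 2, the lowest of its group for Bcl2l11, was the highest for Foxo1. The glucocorticoid receptor Nr3c1 differed by 0.23 ± 0.07 with 5 of 6 probe sets in that direction, and the oxygen-regulated factor Hif1a by 0.37 ± 0.12 with 2 of 4.

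Among other p53 targets, all 15 were measured, with 1 higher, 3 lower and a median of -0.015. The cell cycle inhibitor Cdkn1a differed by -0.52 ± 0.09, Sesn1, a stress-induced brake on growth signalling, by -0.57 ± 0.11 and Trp53inp1, a p53 cofactor, by -0.40 ± 0.08 (SE, n = 3 per group; adjusted p = 0.0943, 0.117 and 0.114, limma). The groups did not overlap for any of the 3, and all their probe sets pointed the same way. Of all genes 11.6% were lower without overlap. Plk2, a kinase induced by p53, was at 0.29 ± 0.10, with overlap between the groups and 1 of 2 probe sets in that direction. Bbc3, the family's classical p53 target, was at 0.072 as given above. Among 19 other targets of the hypoxia factor HIF1, 1 was higher and 2 lower, with a median of 0.0093. Ddit4, an inhibitor of growth signalling that glucocorticoids also induce, read 11.00, 8.87 and 9.87 against 11.19, 10.96 and 11.53, a difference of -1.31 ± 0.41 (SE, n = 3 per group; adjusted p = 0.236, limma). GRK2+/- heart 1 overlapped the wild-type range, and heart 2 was by far the lowest. The difference of Ddit4 was -1.85 without GRK2+/- heart 1 and -0.79 without heart 2, and its unadjusted p was 0.0592 with robust eBayes. The vasodilator peptide gene Adm was at -0.27 ± 0.12 and the pyruvate dehydrogenase kinase Pdk1 at 0.18 ± 0.08, with an unadjusted p under 0.05 in 6 and 9 of 13 alternatives.

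**Figure D4:**
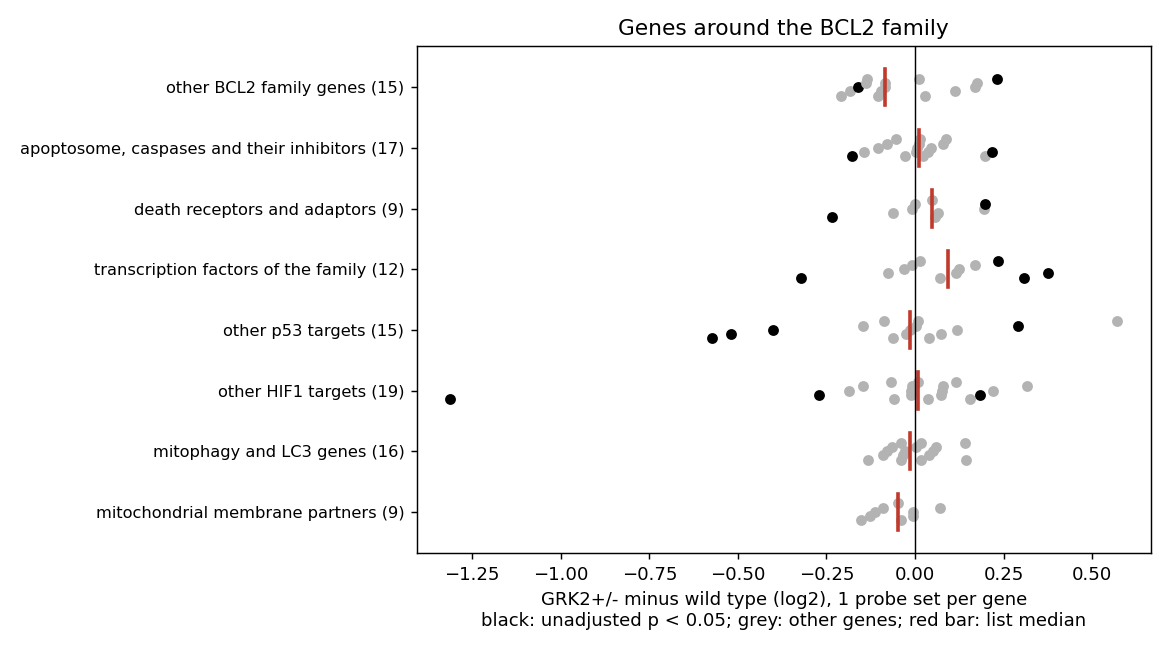
Differences between GRK2+/- and wild-type hearts (log2, brightest probe set of each gene) for the genes of 8 lists around the family, with black points for an unadjusted p under 0.05 and red bars for list medians; numbers in parentheses are measured genes. List medians lie between -0.086 and 0.093; Ddit4, at -1.31, is the point farthest from 0.

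By the measure of Pearson correlation over the 6 hearts, the genes most like the Bcl2l11 probe set 1435449_at were Kcnk3 (r = 0.9988), Ganc (0.9877), Slc45a4 (0.9779), Pank1 (0.9774) and Cnst (0.9747). They were picked as the highest of 18193 genes over 6 points that share the contrast, so the values are a description.

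The tissue label was checked by markers: cardiomyocyte genes Myh6, Tnnt2, Actc1, Tnni3, Pln, Myl2 and Myl3 were at the top of the scale with differences of -0.026 to 0.046, while Ryr2 differed by 0.35 ± 0.08. The atrial genes Sln, Myl7 and Myl4 were not bright in either group, at means of 5.50 to 7.24, while Nppa was at 9.97 in GRK2+/- and 11.17 in wild-type hearts. By level, Nppa was at percentile 94.8 of all probe sets, Myl4 at 64.9, Sln at 38.6 and Myl7 at 35.9, while every cardiomyocyte gene named was at 99 or above. Markers of heart muscle were therefore present in both groups as the tissue label has it, but 3 of 4 atrial markers were not at such levels in tissue described as the upper part of the heart. Summed linear levels of endothelial, myeloid and mesothelial markers were higher in GRK2+/- hearts without overlap between the groups. That of the 4 atrial markers was lower without overlap, at 1013 to 1884 in GRK2+/- against 2188 to 3365 in wild-type hearts. Such sums weigh the brightest genes most, Nppa in the atrial list. How often sums of other genes separate the groups was not tested. Of 6 endothelial genes 5 differed above 0, Kdr most (0.55), and Pecam1 was lower without overlap (-0.12). S100a8 and S100a9 differed by 1.97 and 2.25, and the other myeloid genes by -0.073 (Cd68) to 0.13 (Csf1r). The summed linear level was 3999 to 4398 in GRK2+/- against 3324 to 3964 in wild-type hearts for 6 endothelial genes, and 3235 to 4831 against 2534 to 2863 for 6 myeloid genes, which include S100a8 and S100a9. It was 266 to 305 against 230 to 244 for 4 mesothelial genes and, with overlap, 3657 to 5340 against 3174 to 3777 for 5 smooth muscle genes. At an unadjusted p under 0.05, 2 of 6 endothelial, 2 of 6 myeloid and 3 of 4 mesothelial markers were higher. So were 2 of 5 smooth muscle, 1 of 6 fibroblast, 1 of 5 lymphocyte (Ptprc) and 1 of 8 cardiomyocyte markers (Ryr2). In these lists 0 genes were lower, and 1 of 4 atrial markers (Nppa) was lower. Of all genes 6.3% were higher and 7.7% lower at that level. Ranges overlapped for 4 erythroid genes (939 to 1071 against 641 to 1169), a lineage in which BCL-XL is abundant, and for 5 lymphocyte genes (605 to 675 against 574 to 635), cells in which BIM is abundant. The array gave no true zero, but Itgam, Ms4a1 and Hba-a1 were near the bottom of the scale, at 4.76 to 4.94 in GRK2+/- hearts. These 3 do not stand for their lists: in GRK2+/- hearts Csf1r was at 10.97, Ptprc at 8.11 and Alas2 at 9.62. The part of these cells in the values of Bcl2l11 and Bcl2l1 was not tested, and in whole tissue a change in the number of cells of a type and in RNA per cell cannot be told apart. As a measure of RNA quality, 3′ signal exceeded 5′ signal of the beta-actin controls by 0.98 ± 0.08 in GRK2+/- hearts and by 0.78 ± 0.04 in wild-type hearts (SD, n = 3). The other 3 controls did not run that way in common: the excess was 0.030 and 0.0051 for Gapdh and 1.77 and 1.75 for pyruvate carboxylase, and for the transferrin receptor it was lower in GRK2+/- hearts, at 1.23 against 1.33. Ranges overlapped for the pyruvate carboxylase and Gapdh controls and for the transferrin receptor, but not for beta-actin. The part of RNA quality was not tested either.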

How the data were processed

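Total RNA of 6 hearts was labelled with biotin and hybridised to Affymetrix arrays, 1 per heart, per the labels' protocols. The deposited values are log2 expression values, made by the authors with RMA and limma per the submitters' processing notes; the sources used here give no versions and do not say whether the arrays were normalised as 1 set. Array medians were 6.26 to 6.31. From 45101 probe sets the 64 controls were left out. Of the tested probe sets 34945 had 1 gene symbol, 932 several and 9160 were not listed; 34741 symbols were updated through Entrez identifiers from a RefSeq table (GRCm38.p6).

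GRK2+/- minus wild type was fitted to all 45037 probe sets with limma 3.58.1 (R 4.3.3; lmFit, eBayes, two-sided), adjusted by Benjamini-Hochberg, threshold 0.05. Labels do not say whether hearts came from separate litters. Titles number hearts 1 to 3 in both groups, and these were not treated as pairs. The members and lists were chosen with earlier results of these data known. Named were all members and, in each list, up to 6 genes at an unadjusted p under 0.05, or the 2 with the smallest p where none was. Alternatives were another scaling, prior, array weights, level filter, replicate block and each heart left out. Tested on simulated data for 45037 probe sets, the fit recovered 84% of 1.4-fold and 100% of 2-fold changes with 7.8% false calls. The simulated spreads were those that the fit had already evened out, and varied less between probe sets than real ones. These rates therefore do not carry over to the real data, in which the fit called 0% of probe sets.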

Additional observations from a re-analysis of the deposited data

How the results depend on the processing

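The 6 probe sets of Bcl2l11 and Bcl2l1 at an unadjusted p under 0.05 kept their direction and stayed under that value in all 13 alternatives run, and 1 adjusted p passed the threshold: that of Bcl2l11 1456005_a_at without GRK2+/- heart 2 (0.0456, difference 0.78). Over the fits that left out 1 heart, differences ran from 0.47 to 0.78 for 1456005_a_at, 0.33 to 0.57 for 1435448_at and 0.33 to 0.47 for 1435449_at. They ran from -0.63 to -0.36 for Bcl2l1 1420887_a_at, -0.37 to -0.24 for 1420888_at and -0.56 to -0.26 for 1426191_a_at. The count of family probe sets at an unadjusted p under 0.05 was 6 to 8. The named genes outside the family, tried after their values were seen, had no change of direction in 220 comparisons, but an unadjusted p under 0.05 in 174 of them. Of these 17 genes, 8 (Bcl2l13, Foxo3, Nr3c1, Hif1a, Foxo1, Cdkn1a, Trp53inp1 and Sesn1) stayed under that level throughout, Plk2 lost it only when 1 heart was left out, and Ddit4 only with robust eBayes (0.0592). After centring, p was 0.103 for Bcl2l12, 0.0928 for Dffb, 0.0579 for Fas and 0.0733 for Adm, and with the replicate block it was 0.0633 for Bcl2l12, 0.0741 for Dffb, 0.0582 for Tnfrsf1b, 0.0638 for Adm and 0.0735 for Pdk1. Xiap was at 0.0509 after quantile normalisation.

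Over all probe sets, the count past an adjusted p of 0.05 was 22 with a prior that followed the level and 0 to 41 when 1 heart was left out (41 without GRK2+/- heart 1, 9 without heart 2, 6 without heart 3). The replicate block gave 0 probe sets and 6 family probe sets, and changed no adjusted call. Deviations of same-numbered hearts from their group means correlated at -0.145, -0.020 and 0.0095, and those of different-numbered hearts at -0.099 to 0.116. With 3 hearts per group these values cannot tell whether same-numbered hearts share more than a number. The median of the pro-death probe sets was 0.15 with the brighter probe sets alone, a set of fewer probe sets, and -0.028 to 0.060 when 1 heart was left out; that of the pro-survival ones was then -0.074 to 0.024.

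Direction changed in 28 of 343 comparisons, for 12 probe sets whose differences were at most 0.085 in size; the cause was not tested. After centring, Mcl1 1416880_at was 0.027, Bid 1417045_at 0.027, Mcl1 1448503_at 0.0082 and Bcl2 1457687_at 0.0022. Bid 1417045_at was 0.031 after quantile normalisation and 0.0040 with array weights, which gave 0.0068 for Mcl1 1416880_at. Leaving out 1 heart gave -0.093 to 0.15 for Bid 1417045_at, -0.080 to 0.055 for Bak1 1418991_at, -0.18 to 0.0013 for Bak1 1425716_s_at, -0.013 to 0.18 for Bcl2 1440770_at, -0.17 to 0.18 for Bcl2 1457687_at and -0.093 to 0.00017 for Bcl2 1443837_x_at. It gave -0.070 to 0.037 for Mcl1 1416880_at, -0.064 to 0.027 for Mcl1 1448503_at, -0.0038 to 0.12 for Mcl1 1437527_x_at, -0.076 to 0.092 for Bcl2l11 1426334_a_at, -0.12 to 0.024 for Bcl2l1 1426050_at and -0.066 to 0.012 for Bnip3 1422470_at. Signal over background limits Bid and the dim probe sets of Bcl2, Bcl2l1 and Bak1.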
